A study of Mus musculus with 13 samples.

Results

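The libraries described here are 3 of 13 from mouse ventral tegmental area (VTA), set apart because the transcription factor gene Tcf7l2 read above 5000 normalized counts in them. The other 10 read at or below 5000 and are called Tcf7l2-poor. The sets were chosen by a measured value of these same libraries, so every difference between them is a description and carries no test. All 13 samples carried the strain label C57BlJ/6, all received a virus in the VTA at postnatal day 14, and all were sampled as adults. The GFP control group (n = 3, 1 female and 2 male) received green fluorescent protein and no defeat. The GFP defeat group (n = 4, 2 female and 2 male) received the same virus and met social defeat stress in adulthood. The Setd7 control (n = 4, 2 female and 2 male) and Setd7 defeat (n = 2, 1 female and 1 male) groups overexpressed Setd7, a lysine methyltransferase. The data column of Setd7 defeat replicate 1 carries a longer sample number than its title, so whether it is 1 animal or a pool is not settled. The labels do not give the virus promoter or the cells infected, nor say whether each library is 1 animal, so spread between libraries may be technical.

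Tcf7l2 belongs to the TCF/LEF family, whose members bind DNA with beta-catenin and carry Wnt signals to the genome. In the adult mouse brain it marks thalamic neurons, the habenula and parts of the tectum and pretectum, and it also appears in newly formed oligodendrocytes. The VTA lies ventral to these regions and is known for dopamine neurons that project to the striatum and cortex. The thalamus relays sensory and motor signals to the cortex, and the tectum holds the visual and auditory colliculi.

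The Tcf7l2-rich libraries were GFP control replicate 2 at 9009 normalized counts, GFP control replicate 3 at 9559 and GFP defeat replicate 4 at 6575. The Tcf7l2-poor libraries ran from 949 to 1869 with a median of 1184. The nearest library inside the rule was GFP defeat replicate 4, and the nearest outside it was GFP control replicate 1 at 1869, so no library lay near 5000. All 3 rich libraries came from males and all 3 received GFP. They made up 3 of 7 GFP libraries and 0 of 6 Setd7 libraries, 3 of 7 males and 0 of 6 females, and 2 of 7 undefeated and 1 of 6 defeated libraries. High Tcf7l2 and the GFP virus in males therefore cannot be told apart from these labels alone. Among the 4 male GFP libraries, GFP defeat replicate 3 was the one outside the rule, at 1449.

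**Figure D1:**
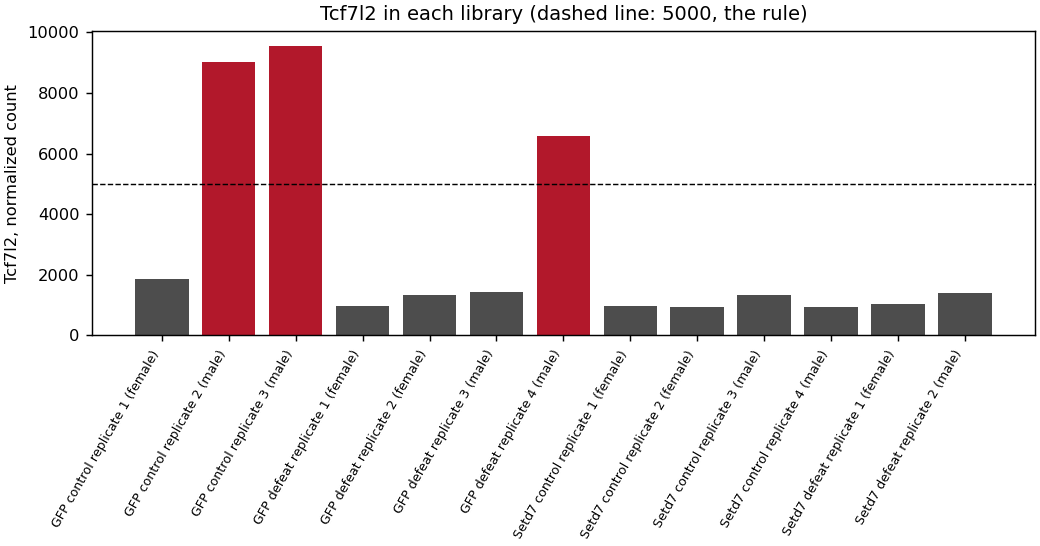
Normalized count of Tcf7l2 (vertical axis, linear from 0) in each of the 13 libraries, with the sex given under each bar. Red bars are the 3 libraries above the dashed line at 5000, between 6575 and 9559, and grey bars are the 10 below it, none above 1869.

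RefSeq annotates more than one start for Tcf7l2, and a table with 1 value per gene cannot say which was used. The 250 bases before a pair of these starts are shown because the gene defines the libraries. They are read from the RefSeq promoter table of build GRCm38.p6, which is older than the GRCm39 build used by the authors. The first window is chr19:55741560-55741809 and the second chr19:55895071-55895320, both on the plus strand, and neither holds a letter in capitals because the TCF/LEF word searched for further on is in neither.
Tcf7l2, upstream start: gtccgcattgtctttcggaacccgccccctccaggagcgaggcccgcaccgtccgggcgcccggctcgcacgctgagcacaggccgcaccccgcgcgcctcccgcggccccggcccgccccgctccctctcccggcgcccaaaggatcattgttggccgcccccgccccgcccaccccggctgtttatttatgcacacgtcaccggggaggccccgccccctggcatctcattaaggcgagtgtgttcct
Tcf7l2, downstream start: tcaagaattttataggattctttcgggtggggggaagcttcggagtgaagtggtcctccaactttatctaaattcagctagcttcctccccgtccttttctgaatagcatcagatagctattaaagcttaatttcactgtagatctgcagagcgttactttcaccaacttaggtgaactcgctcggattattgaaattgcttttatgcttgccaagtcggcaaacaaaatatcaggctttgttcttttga

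The depth of the 2 sets overlapped, although GFP control replicate 2 was the deepest library. The rich libraries held 50.8, 33.4 and 36.3 Mreads (megareads, recovered from the table), against 26.5 to 48.4 Mreads in the poor libraries, and 19415 to 20065 genes with a read against 19406 to 20147. Setd7 itself read 10888 to 14538 in the 7 GFP libraries and 28587 to 158681 in the 6 Setd7 libraries, without overlap, and 12799 to 13664 in the 3 rich ones. Replicates of a group correlated at 0.971 to 0.984 across genes and differed beyond sampling noise in every pair.

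Of 17755 genes that reached 10 normalized counts in at least 2 libraries, 28 (0.158%) read higher in all 3 rich libraries than in all 10 poor ones with a difference of at least 1 on the log2(normalized count + 1) scale. Lower by the same rule were 6 (0.0338%). Without the size limit the counts were 149 (0.839%) above and 64 (0.36%) below. Among the 28 was Tcf7l2 itself, which the rule placed there. Also among them were Wnt ligands and homeobox and zinc-finger regulators of the developing thalamus and midbrain. Others were a GABA receptor subunit and regulators of calcium and G protein signalling. In bulk tissue, more cells of a type and more RNA per cell cannot be told apart, here and throughout.

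Regulators of transcription came first by role. Lhx9, a LIM homeobox factor of thalamic neurons, read 549, 1444 and 421 normalized counts in GFP control replicate 2, GFP control replicate 3 and GFP defeat replicate 4. The 3 rich values keep that order from here on. The poor libraries read 35.3 to 150.3 with a median of 79.1. GFP control replicate 3 was highest, and every rich library lay above the poor range. The related Lhx2 read 174, 209 and 311 against 5.46 to 72.8 with a median of 28.1, with GFP defeat replicate 4 highest. Shox2, a homeobox factor found in thalamic neurons, read 1706, 1541 and 1052 against 88.4 to 789 with a median of 226. Zic1, a zinc-finger factor of the dorsal midbrain and thalamus, read 3711, 1833 and 1813 against 242 to 1068 with a median of 357. For Shox2 and Zic1, too, every rich library lay above the poor range. The difference of mean log2 values was 3.07 for Lhx9, 3.06 for Lhx2, 2.59 for Shox2 and 2.58 for Zic1.

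Signalling genes followed. Wnt9b, a secreted Wnt ligand, read 286, 63.5 and 97.8, and the poor libraries 0 to 29.1 with a median of 2.52. Among the poor libraries 3 read between 23.2 and 29.1, all under the lowest rich library. Its log2 difference of 4.75 was the largest among the named genes and depends on the added 1, since some poor libraries were at 0. Gabrd, the delta subunit of extrasynaptic GABA-A receptors known from thalamic relay neurons, read 465, 138 and 156 against 7.05 to 37.8 with a median of 20.5. GFP control replicate 2 was highest for both, well above the other rich libraries. Rgs16, which shortens G protein signals, read 1788, 403 and 952 against 103 to 346 with a median of 227. Ptk2b, a calcium-responsive tyrosine kinase, read 2194, 1355 and 1108 against 207 to 668 with a median of 319. The tyrosine phosphatase gene Ptpn3 read 4894, 1038 and 1869 against 595 to 935 with a median of 742, with GFP control replicate 3 just above the poor range. Rem2, a small GTPase that restrains voltage-gated calcium channels, was the most even among the rich libraries at 136, 139 and 131, against 40.5 to 74.0 in the poor ones.

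Endou, Tmem215, Sh2d4b and Rasd1 completed the 15 higher genes named by rule, Tcf7l2 among them. Their log2 differences, in the order just given, were 2.09, 1.73, 1.56 and 1.37. For Endou and Sh2d4b the lowest rich library was barely clear, at 29.1 against 28.7 and 51.7 against 50.1, both times GFP control replicate 3. Camk2a, a calcium- and calmodulin-dependent kinase subunit abundant in forebrain excitatory neurons, read 15869, 10889 and 10969 against 4619 to 9339.9 with a median of 5219.8. The one lower gene that reached the level needed for naming was Tmem106a, at 35.7, 30.2 and 31.2 against 41.8 to 94.8 with a median of 75.1, a log2 difference of -1.01.

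Thalamic relay markers were high in 2 of the 3 rich libraries and mostly not in the other. Of 18 listed genes 17 passed the filter, and 17 of 17 lay above every poor library in GFP control replicate 2, 16 in GFP defeat replicate 4 and 6 in GFP control replicate 3. Over all tested genes the same shares were 11.9% (2113 genes), 11.6% (2057) and 13.3% (2353). Tcf7l2 is itself a thalamic marker, so the list is not independent of the rule. The mean level of the list, as mean log2(normalized count + 1), was 10.83, 8.89 and 9.99 in the rich libraries and 7.66 to 8.54 (median 8.28) in the poor ones. The median difference over the list was 1.72, against -0.00237 over all genes tested.

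Prkcd, protein kinase C delta and a classical marker of thalamic relay neurons, read 4956, 394 and 1410.0 against 211 to 476 with a median of 300.0. GFP control replicate 2 stood 16.5 times over the poor median and GFP defeat replicate 4 4.70 times, while GFP control replicate 3 lay inside the poor range. Gbx2, a homeobox factor needed for thalamic development in mice, read 656, 34.5 and 463 against 0 to 70.7 with a median of 19.9. Ramp3, which partners calcitonin-family receptors, read 877, 12.9 and 403 against 12.5 to 78.7 with a median of 41.1. Both repeated the Prkcd pattern, with GFP control replicate 3 no higher than the poor libraries. Synpo2, an actin-binding protein gene, read 4022, 403 and 1720.4 against 254 to 626. Rora, a nuclear receptor of thalamic and cerebellar neurons, was among the 6 members above in all 3 rich libraries, at 19398, 9087 and 9196 against a narrow 5721 to 6818 with a median of 6277. The T-type calcium channel gene Cacna1g, which serves burst firing, was another, at 7414, 4859 and 5154 against 3471 to 4527. Lhx9, Lhx2, Shox2 and Rgs16 were the remaining members.

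**Figure D2:**
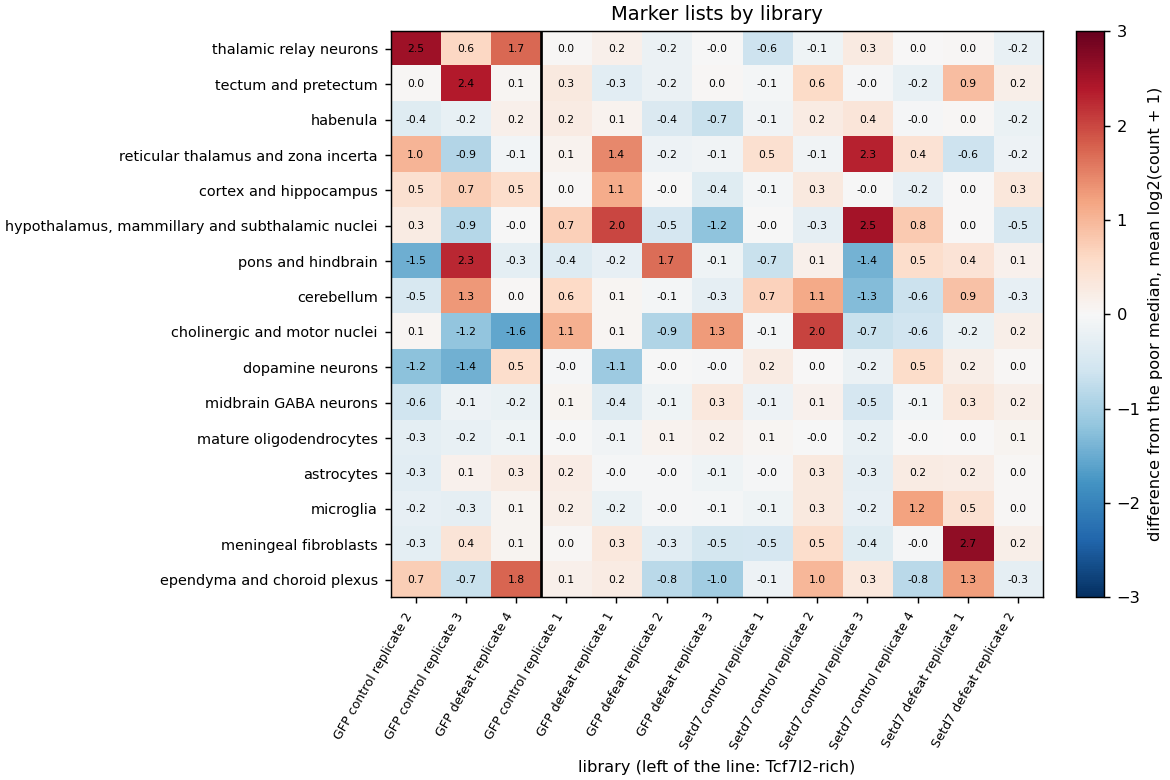
Mean log2(normalized count + 1) of each marker list (rows) in each library (columns), as the difference from the median of the 10 Tcf7l2-poor libraries, so the printed number is 0 at that median. The 3 columns left of the black line are Tcf7l2-rich. Relay-thalamus genes stand high in GFP control replicate 2 and GFP defeat replicate 4, tectal and hindbrain genes in GFP control replicate 3, and dopamine genes are low in the GFP control pair.

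GFP control replicate 2 and GFP defeat replicate 4 shared further genes. Among 14997 genes with a mean of at least 30 normalized counts, 49 lay at least 2-fold above the highest poor library in GFP control replicate 2, 38 in GFP control replicate 3 and 20 in GFP defeat replicate 4. The first and last of these shared 13 genes, 26.5% of the one list and 65% of the other. GFP control replicates 2 and 3 shared 6, 12.2% and 15.8%, although they belong to the same group, sex and virus. GFP control replicate 3 and GFP defeat replicate 4 shared 5, 13.2% and 25%. All 3 lists held Gabrd, Lhx2, Lhx9, Tcf7l2 and Wnt9b. Tcf7l2 chose the libraries, so its place in each list and each overlap follows from the rule. The 8 genes found in GFP control replicate 2 and GFP defeat replicate 4 but not in GFP control replicate 3 were Adra2b, Arsj, Gbx2, Neurl1b, Prkcd, Ramp3, Rgs16 and Synpo2. Across the 14997 genes, departures from the poor mean correlated at 0.27 for GFP control replicates 2 and 3, at 0.35 for GFP control replicate 2 with GFP defeat replicate 4 and at 0.04 for the remaining pair. These are descriptions over genes that share a library and a reference, with no test.

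Among genes highest in GFP control replicate 2 by the naming rule were Endou, Prkcd, Gabrd and Wnt9b, described above, and Grid2ip, which encodes a scaffold of the delta-2 glutamate receptor. Grid2ip read 1379, 200.3 and 447 against 113 to 238 with a median of 145, again with GFP defeat replicate 4 second. The Gbx2 promoter window does not hold the TCF/LEF word described further on. It is chr1:89931177-89931426 on the minus strand, and is shown because the gene reads high in GFP control replicate 2 and GFP defeat replicate 4 and low in GFP control replicate 3.
Gbx2: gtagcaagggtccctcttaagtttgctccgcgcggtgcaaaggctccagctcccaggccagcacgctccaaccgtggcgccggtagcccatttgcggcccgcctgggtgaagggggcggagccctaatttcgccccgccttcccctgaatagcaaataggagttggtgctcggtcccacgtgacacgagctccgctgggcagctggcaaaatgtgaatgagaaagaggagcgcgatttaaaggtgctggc

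GFP control replicate 3 differed from the other rich libraries in its regional genes. Of 9 tested tectal and pretectal markers 7 lay above every poor library in it, against 1 in GFP control replicate 2 and 2 in GFP defeat replicate 4. The shares over all genes were 13.3%, 11.9% and 11.6%, which 1 of 9 does not exceed. The list's mean level was 9.26 there, 6.91 and 6.94 in the other rich libraries, and 6.56 to 7.82 in the poor ones. Tfap2d, an AP-2 family factor of the mouse colliculi, read 1657 in GFP control replicate 3, 4.28 and 6.05 in the other rich libraries, and 1.30 to 31.1 with a median of 9.50 in the poor ones. No other library came near it, the next being Setd7 defeat replicate 1 at 31.1. Pou4f2, a POU-domain factor of tectal and retinal neurons, read 381 there and at most 152 elsewhere. Tfap2b read 266 against at most 161, and Meis2, a TALE homeobox factor, 5159 against at most 3655. Pax7, a dorsal midbrain factor, did not follow, at 729 within a poor range of 62.2 to 1205. Zic1 was the one member of the list above in all 3 rich libraries.

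The sequence before the Tfap2d start, chr1:19102772-19103021 on the plus strand of GRCm38.p6, is shown because the gene marks GFP control replicate 3 and no other library.
Tfap2d: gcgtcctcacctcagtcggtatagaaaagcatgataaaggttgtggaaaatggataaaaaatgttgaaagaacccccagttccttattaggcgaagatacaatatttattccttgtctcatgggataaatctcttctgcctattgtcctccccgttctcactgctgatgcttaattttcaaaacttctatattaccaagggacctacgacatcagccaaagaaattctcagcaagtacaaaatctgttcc

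Other regional genes were also highest in GFP control replicate 3. Fat2, a large cadherin known from cerebellar granule cells, read 1524 there, 0 and 34.3 in the other rich libraries and 0 to 150.4 in the poor ones. Of 6 tested cerebellar markers, Fat2 alone lay above every poor library in GFP control replicate 3. Cbln1 lay below every one, at 1021 against 1675 to 5476. Over all genes 13.3% lay above and 14.3% below in that library. Also named by rule was Ankrd63, at 263 against 1.17 to 23.9. Six3os1 read 421 against 42.1 to 119 and its partner Six3, a homeobox factor, 754 against 67.2 to 188. These overlap on opposite strands and the counting is not stated to use strand, so their reads cannot be told apart. Hoxb3 and Hoxb5, which pattern the hindbrain and are silent rostral to it, read 237 and 179 in GFP control replicate 3 and at most 13.04 and 4.31 in the poor libraries. Hoxb5 reached 10 normalized counts in 1 library only, so it failed the filter and is not among the tested markers. Of 9 tested pons and hindbrain markers 3 lay above every poor library in GFP control replicate 3 and 0 in the other rich libraries. Below every poor library lay 3 in GFP control replicate 2 and 0 in the other rich libraries. The shares over all genes, in the order of the rich libraries, were 11.9%, 13.3% and 11.6% above and 10.8%, 14.3% and 10.9% below. The list's mean level was 7.76 in GFP control replicate 3, 4.03 and 5.20 in the other rich libraries, and 4.08 to 7.17 in the poor ones.

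The vesicular glutamate transporter Slc17a7, which is strong in cortex, sensory relay nuclei and cerebellum, read 1823, 5064 and 746 against 97.9 to 962 with a median of 171. GFP defeat replicate 4 lay under the highest poor library, GFP defeat replicate 1 at 962, and GFP control replicate 3 stood 29.5 times over the poor median. Nrgn, a calmodulin-binding protein of forebrain neurons, read 6599.5 in GFP control replicate 3 and 686 to 2429 in the poor libraries. Of 16 tested cortical and hippocampal markers 7 lay above every poor library in GFP control replicate 3, 3 in GFP control replicate 2 and 2 in GFP defeat replicate 4, against 13.3%, 11.9% and 11.6% of all genes, so the last count is near the share over all genes. Below every poor library lay 2, 0 and 1 in the same order. Camk2a alone was separated. The median difference of that list was 0.14. Slc17a6, the transporter of thalamic and midbrain glutamate neurons, was above the poor range of 7578 to 15781 in GFP control replicate 2 alone, at 19758. Over the 3 transporter genes the median difference was 0.79, with none separated.

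**Figure D3:**
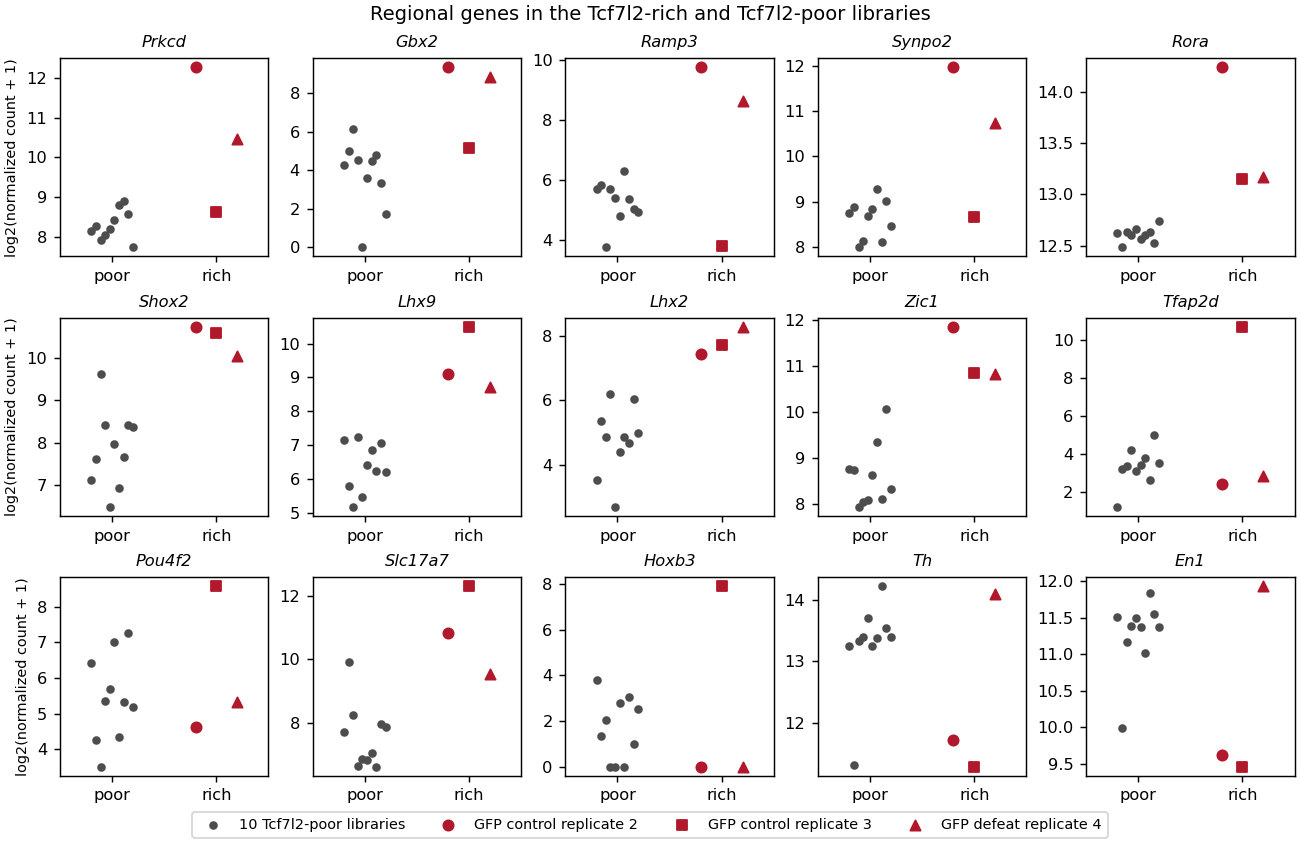
log2(normalized count + 1) of 15 regional genes, 1 panel each with its own vertical scale, in the 10 Tcf7l2-poor libraries (grey) and the 3 rich ones (red, 1 symbol per library). The circle and triangle, GFP control replicate 2 and GFP defeat replicate 4, stand high for Prkcd, Gbx2, Ramp3 and Synpo2, and the square, GFP control replicate 3, for Tfap2d, Pou4f2 and Hoxb3.

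Dopamine neuron genes divided the rich libraries the other way. Of 22 listed genes, 12 lay below every poor library in GFP control replicate 2 and 16 in GFP control replicate 3, against 10.8% (1926) and 14.3% (2544) of all genes. In GFP defeat replicate 4 0 lay below and 7 lay above, against 10.9% (1941) and 11.6%. Th, tyrosine hydroxylase, read 3392, 2508 and 17549.7 against 2539 to 19110.5 with a median of 10739.5. The dopamine transporter gene Slc6a3 read 7565, 4914 and 36158 against 5051 to 45560.4 with a median of 22899.9. The lowest poor value of both was GFP defeat replicate 1, at 2539 and 5051, so low dopamine genes were not particular to the rich set. En1, a homeobox factor that maintains dopamine neurons, read 789.6, 706 and 3894 against 1019 to 3647 with a median of 2655, below all poor libraries in the GFP control pair and above all in GFP defeat replicate 4. Chrna6, a nicotinic receptor subunit of dopamine neurons, read 1092, 994 and 6588 against 1375 to 5799.9 and did the same. The list's mean level was 10.11, 9.90 and 11.88 in the rich libraries and 10.25 to 11.89 in the poor ones, and its median difference of -0.63 averages over that disagreement. Th read no lower than 2508 in any of the 13 libraries, so dopamine neuron RNA was present in each.

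**Figure D4:**
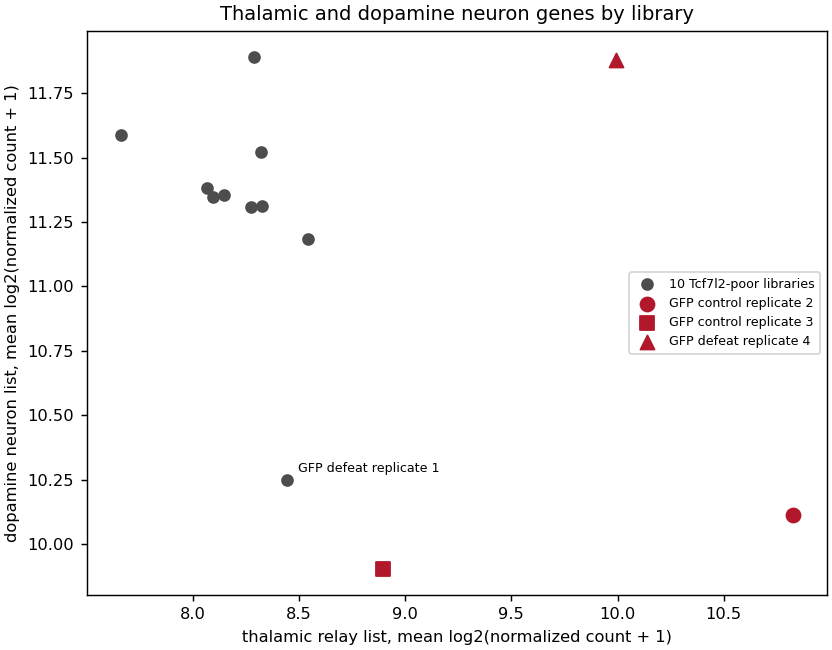
Mean log2(normalized count + 1) of the thalamic relay list (horizontal axis) against that of the dopamine neuron list (vertical axis), 1 point per library. The 9 poor libraries other than GFP defeat replicate 1 sit together at the upper left, GFP defeat replicate 4 lies right of them at 9.99 and 11.88, and the rich GFP control pair lies low, at 10.11 and 9.90 on the dopamine axis.

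The genes highest in GFP defeat replicate 4 by the naming rule included a pair of motile cilium genes. Dnah6, an axonemal dynein heavy chain, read 424 there against 3.12 to 121 in the poor libraries, and Hydin, of the ciliary central pair, 344 against 43.4 to 138. Ependymal and choroid plexus markers come from cells that carry such cilia or line the ventricles. Of 8 tested, 4 lay above every poor library in this library and 0 in the other rich ones. Over all genes 11.6% lay above in this library, and 11.9% and 13.3% in the other rich ones. Transthyretin, Ttr, which is made by choroid plexus, read 92.8, 63.5 and 556 against 10.6 to 513 with a median of 52.3, only just above the highest poor library. The list's mean level was 6.36, 4.95 and 7.36 against 4.58 to 6.87, and its part in the other genes of this library was not tested. Fzd5, a Wnt receptor, read 739.8 against 213 to 452, Cbln4, a secreted synaptic organizer, 3130.4 against 1191 to 1875, and Grp, gastrin-releasing peptide, 305 against 119 to 197. GFP control replicate 2 also lay above the poor range for Cbln4 and Hydin, at 2004 and 177. GFP control replicate 3 lay below that range for Cbln4, Hydin and Dnah6. For Grp the GFP control pair lay below it.

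Genes known to act with Tcf7l2 differed in both directions between the rich libraries. Of 20 listed family members, partners and Wnt targets, 0 were separated and the median difference was 0.06. In the 3 rich libraries 4, 1 and 7 lay above every poor library, where the shares over all genes were 11.9%, 13.3% and 11.6%. Below every poor library lay 4, 6 and 1, where those shares were 10.8%, 14.3% and 10.9%. Lef1, a fellow TCF/LEF factor also on the thalamic list, read 1616, 514 and 739 against 351 to 578 with a median of 416. Axin2, a feedback target of Wnt signals, read 1658, 1097 and 1407 against 793 to 1112 with a median of 1008, with GFP control replicate 3 inside the poor range. Ctnnb1, beta-catenin itself, read 14604, 12210.2 and 15276 against 12238 to 14617, above the poor libraries in GFP defeat replicate 4 and below them in GFP control replicate 3. Tcf7l1 lay inside the poor range, at 148, 179.9 and 180.4 against 133 to 192.

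The TCF/LEF word CTTTGAA or CTTTGAT was searched on both strands in the 250 bases before each RefSeq start. It lay in 972 of 17255 windows of the genes tested (5.63%). Of 23 windows of 19 separated higher genes 0 held it, and of 21 windows of 16 thalamic list genes 0 did. No match says only that these letters are not in these windows.

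Channels of thalamic firing gave a mixed picture. Of 12 genes, 5, 6 and 2 lay above every poor library in the rich libraries, Cacna1g alone in all 3. Below every poor library lay 1, 0 and 3. Over all genes 11.9%, 13.3% and 11.6% lay above and 10.8%, 14.3% and 10.9% below, so 2 of 12 is near its share. The median difference was 0.19. Hcn4, a pacemaker channel gene, was highest in GFP control replicate 2, at 2599 against 1599.6 to 2041, and Kcnc2, a fast-spiking potassium channel gene, likewise, at 12489.6 against 5001 to 8931.

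Markers of the habenula and of newly formed oligodendrocytes, where Tcf7l2 is also known, were not separated in either direction. Habenular genes, in the small epithalamic nucleus beside the thalamus, lay above every poor library for 0 of 9 genes in the GFP control pair and for 3 in GFP defeat replicate 4, with a median difference of -0.12. Below every poor library lay 3 in each library of the GFP control pair and 0 in GFP defeat replicate 4. Over all genes 11.9%, 13.3% and 11.6% lay above in the rich libraries and 10.8%, 14.3% and 10.9% below. The habenular receptor gene Gpr151 read 45.0, 36.6 and 38.3 against 17.1 to 61.3. Newly formed oligodendrocyte genes had a median difference of -0.16 over 6 genes, with 0 above the poor libraries in any rich library and 3, 2 and 2 below all of them. With 6 genes, each of these is a share over the 10.8%, 14.3% and 10.9% of all genes. Enpp6, a marker of that stage, read 479.7, 798 and 803 against 573 to 1103 with a median of 935.

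The remaining lists had no separated member. Median differences were -0.47 for 9 reticular thalamus and zona incerta genes, -0.39 for 11 hypothalamic, mammillary and subthalamic genes, -0.13 for 9 pons and hindbrain genes, 0.19 for 6 cerebellar genes, -1.27 for 5 cholinergic and motor genes and 0.56 for the tectal list, where Zic1 is the exception. Among cholinergic genes, Chat, choline acetyltransferase, read 47.8, 16.2 and 18.1 against 17.7 to 243 with a median of 94.2. The range of the poor libraries was wide and held GFP control replicate 2 and GFP defeat replicate 4. Of 7 midbrain GABA genes, Gad2, a GABA-synthesizing enzyme, was lower in all 3 rich libraries at 15441, 14600.3 and 16676 against 16940.5 to 23319, a log2 difference of -0.35, and the list's median was -0.29. Glial and vascular medians were -0.23 for 12 mature oligodendrocyte genes, -0.13 for 5 precursor genes, 0.01 for 10 astrocyte genes, -0.22 for 8 microglial genes, -0.07 for 7 endothelial and mural genes, -0.15 for 8 meningeal genes and 0.54 for the 8 ependymal genes. Below every poor library lay 7, 4 and 2 of 12 mature oligodendrocyte genes and 5, 4 and 0 of 8 microglial genes. Midbrain GABA genes lay below for 4, 1 and 3 of 7. For these lists 0 lay above. Precursor genes lay below for 1, 2 and 0 of 5, with 0, 0 and 1 above. Astrocyte genes lay below for 2, 1 and 1 of 10, with 1, 0 and 3 above. Over all genes 10.8%, 14.3% and 10.9% lay below and 11.9%, 13.3% and 11.6% above. Of 5 blood genes only Alas2 passed the filter, at -0.53, and the haemoglobin genes are listed at 0.

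The rich libraries sit unevenly in the study's groups, so each contrast was fitted with limma on all 13 libraries, without the 3, and with a term marking them. The first contrast is Setd7 against GFP without defeat, whose reference group holds 2 rich libraries of 3. No gene passed an adjusted p of 0.05 by limma in any of these fits, while 1423 (8.01%), 1475 (8.4%) and 1568 (8.83%) had an unadjusted p under 0.05. By edgeR 0 genes passed and by DESeq2 27 did (0.152%). DESeq2 gave no adjusted p for 2066 of the genes, which are counted as not passing. Setd7 itself was tested and did not pass by limma, although its levels did not overlap between Setd7 and GFP libraries. The 0 genes called by limma therefore do not show that no gene differed. On all libraries the thalamic list had a median log2 fold change of -0.79, with 16 of 17 members below 0 and 6 at an unadjusted p under 0.05. Without the rich libraries the median was -0.10 with 11 below 0 and 0 at that level, and with the term it was -0.08. The tectal list went from -0.77 to -0.08 and -0.23.

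Dopamine genes had the opposite sign and also depended on leaving out the rich libraries, but hardly on the term. Their median in that contrast was 0.98 on all libraries, with 22 of 22 above 0 and 18 at an unadjusted p under 0.05, and 0.09 without the rich libraries, with 14 above 0 and 0 at that level. With the term it was 0.90, with 22 of 22 above 0 and 3 at that level. The term is 1 value for all 3 libraries although the GFP control pair read low and GFP defeat replicate 4 high. Th had a log2 fold change of 1.58 (SE 0.57, adjusted p = 0.579 by limma) on all libraries and 0.17 (SE 0.64, adjusted p = 0.970) without the rich ones. Shox2 had -2.06 (SE 0.71, adjusted p = 0.564 by limma) and 0.16 (SE 0.70, adjusted p = 0.973). Slc17a7 had -3.36 (SE 0.89, adjusted p = 0.539 by limma) and -0.49 (SE 0.77, adjusted p = 0.909). None of these passed in either fit. Without the rich libraries GFP control is replicate 1 alone, which the limma fit assumes to vary like the other groups.

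**Figure D5:**
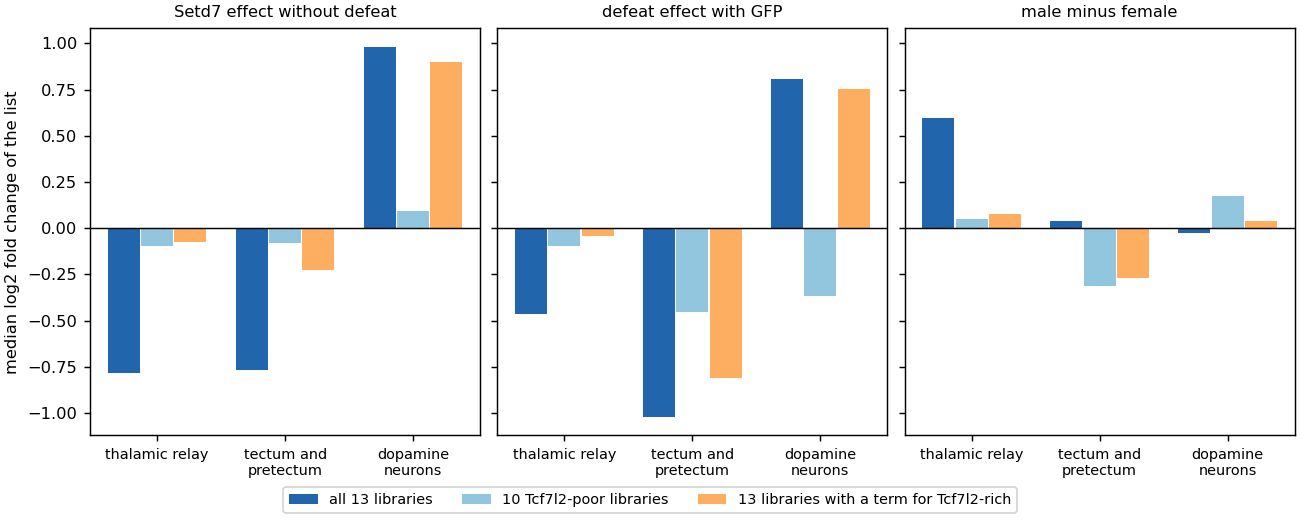
Median log2 fold change of the thalamic relay, tectal and dopamine lists (horizontal groups) in 3 contrasts (panels), fitted on all 13 libraries (dark blue), on the 10 Tcf7l2-poor libraries (light blue) and on all with a term for the rich ones (orange). The thalamic bar for Setd7 without defeat goes from -0.79 to -0.10 without the rich libraries, and the dopamine bar for defeat with GFP from 0.81 to -0.37.

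The second contrast is defeat against none with GFP, with 1 rich library of 4 against 2 of 3. No gene passed by limma on all libraries or without the 3, and 1642 (9.25%) and 1717 (9.78%) had an unadjusted p under 0.05. By edgeR 0 passed and by DESeq2 83 did (0.467%), where DESeq2 gave no adjusted p for 3787 of the genes. The thalamic median was -0.47 on all libraries and -0.10 without the rich ones, and the tectal median -1.02 and -0.45, with -0.04 and -0.81 in the fit with the term. The dopamine median was 0.81 with 22 of 22 above 0 on all libraries and -0.37 with 21 of 22 below 0 without the rich ones. With the term it was 0.75 with 22 of 22 above 0. The sign of the dopamine median was thus turned by leaving the 3 libraries out, with GFP control again replicate 1 alone, and not by the term.

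With the term for the rich libraries, 8 genes (0.0451%) passed by limma in the defeat contrast, where 1872 (10.5%) had an unadjusted p under 0.05, and all 8 fell. They were Col11a1, Gm14827, Meg3, Mir124a-1hg, Pnisr, Smpd4, Snhg11 and Ttc14, of which Meg3, Snhg11 and Mir124a-1hg are long noncoding RNAs of neurons. Mir124a-1hg, from which miR-124 is processed, read 2313, 2781 and 2314 without defeat and 1103, 971, 1428 and 853 after it, all with GFP and without overlap. Its log2 fold change was -1.36 (SE 0.15, adjusted p = 0.0316 by limma) with the term, -1.15 (SE 0.18, adjusted p = 0.339) without it and -1.16 (SE 0.20, adjusted p = 0.416) without the rich libraries. Meg3 read 87245, 72622 and 68697 against 47317, 36308, 58154 and 26474, and its log2 fold change was -1.25, -0.88 and -1.09 in the same 3 fits. For both, GFP defeat replicate 4 was the lowest library of its group. The undefeated Setd7 control libraries read 1035, 1000, 1891 and 1302 for Mir124a-1hg. For Meg3 they read 40742, 35499, 76940 and 50644. Their range thus overlapped that of the defeated GFP libraries for both genes. These 8 genes passed in the fit with the term and in neither of the other limma fits.

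The third contrast is male against female, and all 3 rich libraries are male. The thalamic list lay above 0 for 17 of 17 genes on all libraries, with a median of 0.59 and 3 at an unadjusted p under 0.05, and had a median of 0.05 with 12 above 0 without the rich ones. Over all genes 687 (3.87%) had an unadjusted p under 0.05 on all libraries, 3.86% without the rich ones and 3.88% with the term. Lhx2 had a log2 difference of 1.75 (SE 0.56, adjusted p = 0.999 by limma) on all libraries and 0.65 (SE 0.48) without them, and passed in neither fit. By limma 11 genes (0.062%) passed on all libraries and 9 (0.0513%) without the rich ones, all 9 among the 11. With the term 9 passed (0.0507%), by edgeR 10 (0.0563%) and by DESeq2 17 (0.0957%). These are descriptions of what the same fits give with and without libraries picked by a readout, and the difference between the fits was not tested.

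Set against other males or other GFP libraries alone, the rich libraries gave similar differences for the leading lists. Against the 4 poor males the median difference of the thalamic list was 1.77 and of the dopamine list -0.77, and against the 4 poor GFP libraries 1.64 and -0.44. Tcf7l2 itself differed by 2.71 and 2.59. Of the 28 genes separated higher, 26 were so against males and 25 against GFP libraries. A gene above every poor library is also above any subset of them, so the lack of overlap was fixed in advance. Only the size limit or the filter on low values could lose a gene, so these counts do not test the separation.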

How the data were processed

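Total RNA from VTA punches was purified on RNeasy Micro columns, and TruSeq libraries were prepared after ribosomal RNA removal, per the labels' protocols. The submitters' processing notes name Bowtie2, featureCounts, DESeq2 and build GRCm39, with no version. What the authors deposited is a single table of signal covering 26264 genes in 13 libraries, in which counts have been scaled by DESeq2's size factors. Whole reads were recovered by dividing each column by its smallest step: 341432 of 341432 values (100%) came out within 0.01 of a whole number.

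Genes reaching 10 normalized counts in at least 2 libraries were kept (17755; 8509 dropped). Levels were compared as log2(normalized count + 1), which understates changes of low genes. A gene was separated when all 3 rich libraries lay above, or all below, all 10 poor ones with a log2 difference of at least 1. Contrasts used limma 3.58.1 with a trend (R 4.3.3), 4 group means and sex, two-sided, Benjamini-Hochberg over all genes, threshold 0.05. edgeR 4.0.16 and DESeq2 1.42.0 on recovered reads were alternatives, beside pseudocount 5, no filter, TMM scaling, no sex term, and leaving libraries out. Scripts were tested on simulated data.

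The libraries, gene lists and tests were chosen with earlier results of these data known. Lists came from general knowledge. Named were Tcf7l2, up to 15 separated genes per direction with a mean of 30 or more, up to 5 genes per rich library that reached 200 and stood farthest over the other 12, and list members. Predicted, RIKEN and sex-chromosome names were left out, and 3 further genes are not reported here. List examples with the widest contrast between libraries, the genes shared by 2 rich libraries and the 8 genes of the defeat contrast were picked after their values were seen. Promoter sequences are RefSeq's, build GRCm38.p6, matched by symbol. Replicate numbers follow accession order and pair nothing.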

Additional observations from a re-analysis of the deposited data

Results flagged for a closer look

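Among 102 groups of 4 libraries looked at, 16 had 1 library whose gap to the nearest of the other 3 exceeded Dixon's 95% critical value as a share of the group's range. Chance gives such a flag in about 1 group in 20. Groups of 3 and of 2, which include both rich GFP control libraries, were not looked at. GFP defeat replicate 4 held 9 of the 16. That library was chosen for its Tcf7l2, and several of these genes were named because they are high in the rich libraries, so their flags follow from the choice and are not set against chance. In that library Tcf7l2 stood at 6575 against 982 to 1449 in the rest of its group, Lhx2 at 311 against 28.1 to 72.8, Zic1 at 1813 against 242 to 424 and Ptpn3 at 1869 against 711 to 871. Prkcd stood at 1410.0 against 240.2 to 306, Grid2ip at 447 against 113 to 146, Dnah6 at 424 against 3.12 to 48.6, Hydin at 344 against 43.5 to 67.2 and Fzd5 at 739.8 against 213 to 276.

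In Setd7 control replicate 3, a poor library, Tcf7l2 stood at 1320.4 against 949 to 981, Wnt9b at 29.1 against 0 to 2.97 and Fzd5 at 452 against 277 to 289. The mean level of oligodendrocyte precursor genes was 11.18 in that library against 11.38 to 11.40 in the others of its group. The mean level of reticular thalamus and zona incerta genes was 6.85 in GFP defeat replicate 1 against 5.25 to 5.33. Pons and hindbrain genes had a mean level of 7.17 in GFP defeat replicate 2 against 5.20 to 5.37. Vesicular glutamate transporter genes had 9.49 in Setd7 control replicate 2 against 8.999 to 9.04.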

How the results depend on the processing

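The 28 genes separated higher and 6 lower became 24 and 4 with pseudocount 5, 37 and 8 without a filter, and 28 and 6 with TMM scaling. They became 87 and 52 against male libraries only, 63 and 48 against GFP libraries only, and 149 and 64 with any size of difference, where fewer libraries or no size limit make separation easier. Leaving out 1 library gave 29 to 131 higher and 6 to 57 lower. The largest shifts came without GFP control replicate 3 (131 and 50), GFP defeat replicate 4 (73 and 57) and GFP control replicate 2 (42 and 47). Without GFP control replicate 3, 27 of the 28 were kept, where only the size limit could lose a gene. The lower count was also 10 without GFP defeat replicate 2, 10 without Setd7 control replicate 1 and 12 without Setd7 defeat replicate 1. Log2 differences of single genes were set against the spread between the poor libraries. Without GFP control replicate 3, 54 shifted by more than that spread. Without GFP defeat replicate 4 and GFP control replicate 2, 43 and 28 did. Leaving out 1 of the 10 poor libraries cannot move their mean that far, so the 0 found there could not have differed.

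For Setd7 without defeat, limma called 0 genes and DESeq2 27, and leaving out 1 library gave 0 to 4, with 4 without GFP control replicate 1 and 1 without Setd7 control replicate 4. For defeat with GFP, limma called 0, DESeq2 83 and the term for rich libraries 8, and leaving out 1 library gave 0 to 0. For male against female, limma called 11, DESeq2 17, and leaving out 1 library gave 10 to 11. The cause of these differences between tools was not tested. edgeR, pseudocount 5, no filter and no sex term left the first 2 contrasts at 0. No paired analysis was possible because the replicate numbers follow accession order and pair no libraries. With 3 rich libraries, any share shown by them rests on few samples, and low genes such as Wnt9b depend on the added 1.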

Other observations

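Several poor libraries also stood apart, in other regional genes. GFP defeat replicate 1 had the lowest dopamine level of the poor libraries, 10.25, with the highest cortical and hippocampal level of all 13, 9.01, and a hypothalamic, mammillary and subthalamic level of 7.99. Setd7 control replicate 3 had the highest level of that hypothalamic list, 8.47, with Hcrt, the peptide of orexin neurons, at 2251 normalized counts against 24.4 at the poor median and 12.1, 0 and 6.05 in the rich libraries. Pmch, melanin-concentrating hormone, read 1428 there against 54.0 at the poor median. Both libraries were low in Tcf7l2, at 982 and 1320.4, so a threshold on Tcf7l2 did not select them.

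By the count of genes at least 2-fold above every other poor library, Setd7 control replicate 4 had 123 genes and Setd7 defeat replicate 1 had 92, and the other 8 poor libraries 0 to 6. At least 2-fold below every other poor library the order differed, with 4 and 13 genes in these libraries. GFP defeat replicate 1 had 24 such genes, and the remaining 7 poor libraries had 1 to 13. The rich libraries, against all 10 poor ones, had 15, 29 and 15 genes below. Setd7 control replicate 4 had the highest microglial level, 11.56 against 10.12 to 10.82 in the other poor libraries. Setd7 defeat replicate 1 had the highest meningeal level, 10.36 against 7.17 to 8.23. GFP defeat replicate 2 had the highest pons and hindbrain level of the poor libraries, 7.17.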
